A study of Zea mays with 2 samples.

Results

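The arms of maize chromosome 4 were described from the MNase hypersensitive sites that the authors called in leaf of the inbred line B73. The sites are the peaks of the authors' merged list whose summits lie at 5 to 95 Mb (short arm) or at 125 to 242 Mb (long arm) of chromosome 4 on B73 RefGen_v4, which leaves out the chromosome ends and the region around the centromere. There were 6310 such sites of 66801 in the merged list (9.45%), 2363 in the 90 Mb of the short arm and 3947 in the 117 Mb of the long arm. Chromosome 4 as a whole held 7160. Both libraries belong to 1 group, in which leaf of 10-day-old B73 plants was fixed with formaldehyde and its nuclei digested with 100 U of MNase, after which DNA of 40 to 100 bp was recovered. Per the labels' protocols the tissue was pooled from 10 plants. A heavy digestion with 900 U of MNase is also listed for both libraries, which are grouped here by the 100 U. Nothing in the labels says that the pools behind replicates 1 and 2 were collected apart, and the spread given for n = 2 may therefore be technical only. No untreated or naked-DNA group was analysed here.

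Micrococcal nuclease cuts DNA that is not wrapped around a nucleosome, and sites that it cuts readily under light digestion tend to be regulatory DNA such as promoters and enhancers, where transcription factors keep nucleosomes off. In maize the genes are concentrated towards the outer parts of the arms, while the inner parts are filled mostly with retrotransposons packed into closed chromatin. The short arm of chromosome 4 is known for the starch gene sugary1, the domestication gene tga1, which shapes the casing of the kernel, and the clustered bx genes of benzoxazinoid defence compounds. Gene annotation of the peaks' build was not used here, so no site is tied to a gene.

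The chromosome was chosen by its low number of merged sites per Mb, so density and everything that follows from it are given as a description, without a test. The arms of the other 9 chromosomes were limited in the same way, with 5 Mb left out at each end and 15 Mb on each side of the approximate centromere, and hold 50911 merged peaks in 18 arms. There is only 1 chromosome 4 and peaks on it are not replicates, so the comparisons with other arms are ranks and ranges. Just inside the limits, the first and last sites of the short arm had fold enrichments of 7.78 (119 bp wide) and 8.16 (108 bp), and those of the long arm 13.4 (163 bp) and 5.45 (160 bp). Just outside, the neighbours of these sites had 8.26 (151 bp) at the 5 Mb limit, 8.78 (219 bp) at 95 Mb, 5.14 (61 bp) at 125 Mb and 9.04 (360 bp) at 242 Mb. Fold enrichment is the authors' own value per peak, over the background of their peak caller, and is used only within a list.

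The chromosome was the sparsest of the 10, with a sparse short arm and a long arm nearer to the others. Both arms together held 30.5 merged sites per Mb, compared with 32.3 to 35.7 on the other chromosomes. The short arm held 26.3 merged sites per Mb and, in the replicate lists, 29.4 and 23.3 (mean of the replicates 26.4 ± 4.34, SD, n = 2). It ranked 3 of 20 arms from the lowest in each of the lists, after the short arms of chromosomes 6 and 10. The long arm held 33.7 merged sites per Mb and, in the replicate lists, 37.1 and 30.8 (mean 34.0 ± 4.44, SD, n = 2), which placed it at rank 8 by merged sites and at ranks 7 and 9 by the replicate lists. The other 18 arms had a median of 34.7 per Mb and ran from 23.2 (short arm of chromosome 6) to 37.4 (long arm of chromosome 6). Replicate 1 has more peaks than replicate 2 in every arm, and the depth of the libraries is unknown. Among the 10 long arms, that of chromosome 4 was above those of chromosomes 2 (32.4) and 5 (33.4). A stretch at 175 to 195 Mb, described further on, held many sites in 1 replicate alone. Without it the long arm of chromosome 4 held 31.9 per Mb, and the lowest other long arm, that of chromosome 2, 32.4. The stretch held 42.4 per Mb and was cut from this arm alone, so the density had to fall. The order of these 2 arms also depended on the list. In replicate 1 they held 35.8 and 35.3 per Mb, and in replicate 2 they held 29.1 and 29.2. Among sites found in both replicates they held 24.9 and 24.1. The name "sparsest" therefore holds for the pair of arms and not for either whole arm among the 20.

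**Figure D1:**
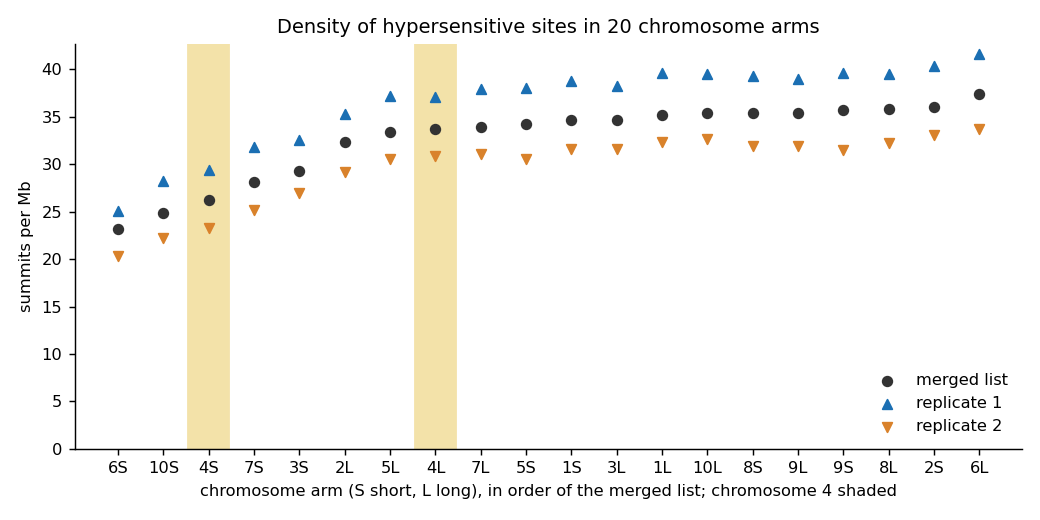
Merged and replicate summits per Mb (y axis) in 20 chromosome arms (x axis, ordered by the merged list); the chromosome 4 arms are shaded. The short arm of chromosome 4 stands at 26.3 per Mb, the third lowest, and the long arm at 33.7 per Mb, close to most other arms.

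The short arm was sparse over most of its 1 Mb bins and not in a few alone. Its 1 Mb bins held a median of 26 merged sites (interquartile range 19 to 32, 90 bins), against 33 (24 to 42, 1495 bins) in the other arms. The upper end was lowered as well: 2 of its 90 bins (2.22%) reached 50 sites, compared with 11.7% of bins in the other arms. Bins with 15 sites or fewer made up 13.3% of the short arm and 6.49% of the other arms. The long arm had a median of 32 per bin (25 to 42, 117 bins), with 8.55% of bins at 50 or more and 3.42% at 15 or fewer. The limits of 15 and 50 sites were chosen after the counts were seen. The variance of the counts over their mean was 3.46 in the short arm and 3.57 in the long arm. It was lower only in the long arm of chromosome 1 (2.83) and the short arm of chromosome 7 (3.39). This ratio can depend on the mean, which was low in the short arm (26.3, SD 9.54). The short arms of chromosomes 6 and 10 had lower means, 23.2 and 24.8, with higher ratios, 7.31 and 4.76. The long arm had its low ratio at a mean of 33.7. Whether the ratio followed the mean was not tested. The rank alone does not show that the density of the short arm was more even.

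Along the short arm the density fell from the outer part towards the centromere. Bins of 5 Mb held 172, 194 and 201 merged sites between 5 and 20 Mb, and 168, 133, 153 and 155 between 20 and 40 Mb. From 45 to 85 Mb every bin held between 89 and 121. The last bin, at 90 to 95 Mb, held 73 (88 in replicate 1 and 65 in replicate 2) and was the least dense, while the densest, at 15 to 20 Mb, held 201 (222 and 181). Split at its midpoint, the arm held 31.8 sites per Mb in the outer part and 20.7 in the inner part, a ratio of 1.54 (1.47 and 1.60 in the replicate lists). The outer part ranked 3 and the inner part 2 of 20 from the lowest among the same parts of the arms. The densest 1 Mb bins were 5000001 to 6000000 with 56 sites (62 in replicate 1 and 54 in replicate 2) and 11000001 to 12000000 with 50 (53 and 38). The least dense were 9000001 to 10000000 with 10 (14 and 9) and 61000001 to 62000000 with 11 (11 and 7). The sparse bin at 9 to 10 Mb thus lies between the densest ones, in the outer part of the arm.

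The long arm did not thin out evenly towards the centromere. The last 2 Mb, at 240 to 242 Mb, held 108 sites. Bins of 5 Mb held 205 and 197 at 230 to 240 Mb, and only 126 at 225 to 230 and at 215 to 220 Mb. Counts rose again inwards, to 246 at 190 to 195 Mb (235 in replicate 1 and 207 in replicate 2), 234 at 180 to 185 Mb and 217 at 155 to 160 Mb. Between 125 and 155 Mb they dropped to between 97 and 152. The least dense bin was 135 to 140 Mb, with 97 (112 in replicate 1 and 78 in replicate 2). The outer part held 36.0 sites per Mb and the inner part 31.4, a ratio of 1.15, and only the short arm of chromosome 6 had a lower one among the 20 arms. The densest 1 Mb bins were 183000001 to 184000000 with 63 sites (60 and 61 in the replicates) and 240000001 to 241000000 with 61 (68 and 59). The least dense were 135000001 to 136000000 with 10 (14 and 5) and 143000001 to 144000000 with 12 (14 and 12).

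Both replicates traced the same profile. Over 1 Mb bins their counts correlated with r = 0.94 in the short arm (90 bins) and 0.93 in the long arm (117 bins). The correlation is a description, since neighbouring bins need not be independent and both libraries share the genome. The number of replicate 1 peaks over that of replicate 2 peaks ranged from 1.12 to 1.48 over 5 Mb bins of the short arm and from 1.05 to 1.44 in the long arm. The lowest of these ratios, 1.05, was at 180 to 185 Mb of the long arm.

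**Figure D2:**
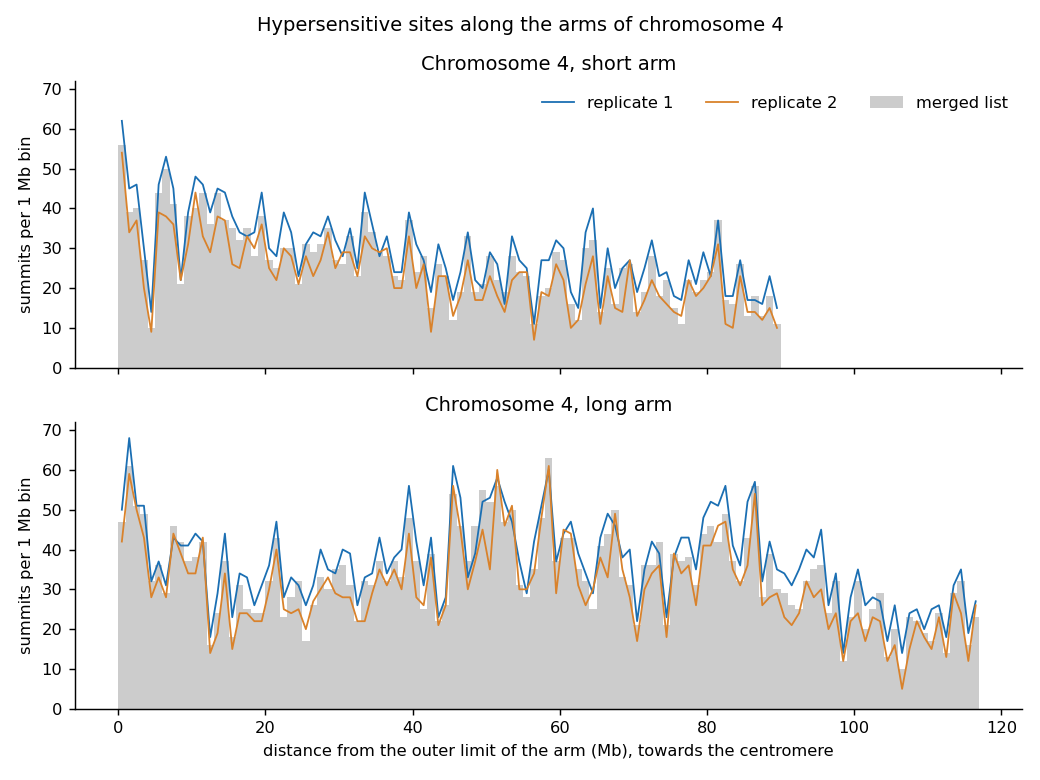
Summits per 1 Mb bin (y axis) along the short arm (top) and the long arm (bottom) of chromosome 4, by distance from the outer limit of each arm (x axis); grey bars are the merged list and lines the replicates. The short arm falls from 31.8 per Mb in its outer part to 20.7 in its inner part, while the long arm has a second rise in its middle.

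Because density declines from the tips of most arms, the arms were also compared in steps of 10 Mb at equal distance from the chromosome end. At 5 to 15 Mb from the end the short arm held 36.6 merged sites per Mb and the long arm 43.0, against a median of 48.6 in the other 18 arms. At 45 to 55 Mb the short arm held 22.0 per Mb, below all 13 other arms that reach so far (25.4 to 46.8). It was also below every other arm at 65 to 75 Mb (22.3, 12 arms from 24.3), 75 to 85 Mb (19.0, 10 arms from 20.2) and 85 to 95 Mb (19.3, 8 arms from 19.4), and below 12 of 13 at 55 to 65 Mb (22.2). The margin at 85 to 95 Mb was very small. Arms differ in length, so equal distance from the end is not equal distance from the centromere. In its last step the short arm was at its inner limit, while longer arms ran on. Each replicate alone placed it lowest in the same steps, with 1 arm lower at 55 to 65 Mb in replicate 1 and none in replicate 2.

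The long arm took the opposite place at some of the same distances. It held 27.9 per Mb at 15 to 25 Mb from the end, below 16 of 18 arms. It then stood above every other arm at 55 to 65 Mb (44.7, against 21.3 to 38.1), at 65 to 75 Mb (37.7, 24.3 to 37.4) and at 85 to 95 Mb (40.2, 19.4 to 39.9). The margins at 65 to 75 and 85 to 95 Mb were small, and in replicate 2 alone 1 other arm was denser at 85 to 95 Mb (38.0 against 37.3). Among sites found in both replicates 1 arm was denser at 55 to 65 Mb (29.5 per Mb in the long arm), 2 at 65 to 75 Mb (26.8) and 1 at 85 to 95 Mb (31.5). The short arm was below all other arms in each step from 45 to 95 Mb on that measure, at 16.1, 16.6, 16.3, 15.1 and 13.6 per Mb.

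**Figure D3:**
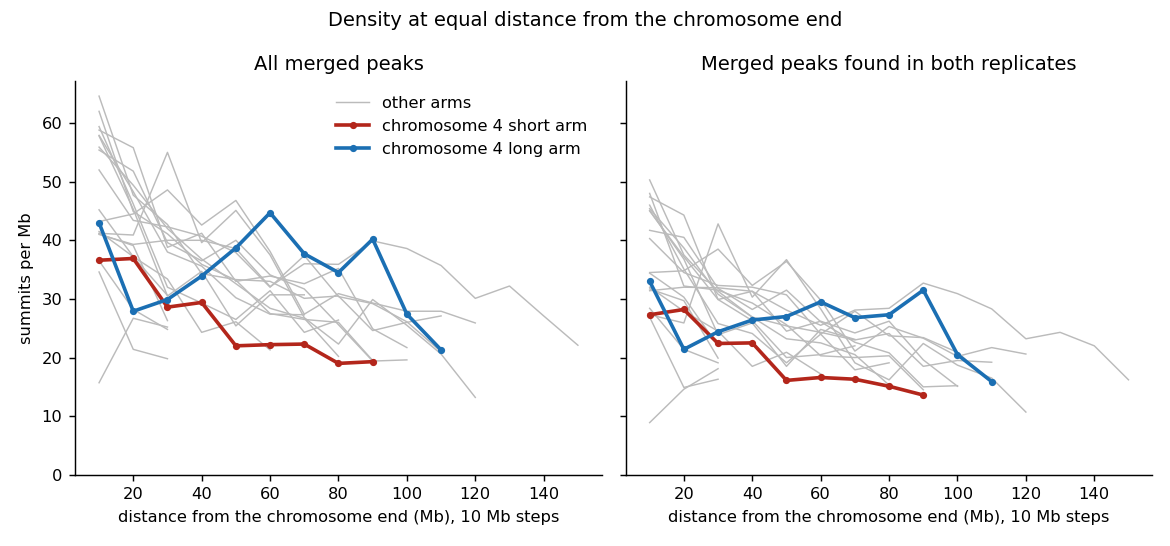
Merged summits per Mb (y axis) in 10 Mb steps of distance from the chromosome end (x axis), for all merged peaks (left) and those found in both replicates (right); grey lines are the 18 other arms. From 45 Mb inwards the short arm (red) runs between 19.0 and 22.3 per Mb on the left, at or near the bottom, and the long arm (blue) rises to 44.7 at 55 to 65 Mb.

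Relative to the other 18 arms together, the short arm lacked moderately enriched and wide sites more than strong or narrow ones. Peaks were ranked by fold enrichment within each list over the whole genome and divided into 5 equal quintiles, and the density of each was set over that in the other 18 arms together. In the short arm this ratio was 0.767 for the weakest quintile, 0.713 and 0.722 for the next pair, 0.798 for the fourth and 0.869 for the strongest, against 0.773 for all sites. The strongest quintile had the highest ratio in each replicate too, 0.863 in replicate 1 and 0.889 in replicate 2. Sites of 130 bp or more had a ratio of 0.739 (0.724 in replicate 1 and 0.739 in replicate 2). Narrow sites, under 130 bp, had 0.892 (0.889 and 0.791 in the replicate lists). For the long arm the ratio was 0.892 in the weakest quintile, 1.08 in the fourth and 1.06 in the strongest, and 0.993 for all sites. The short arm was not alone in its pattern. Its share of sites in the strongest quintile, 22.1%, ranked 3 of 20 from the highest, and the short arm of chromosome 6 had the highest, 23.4%. That arm also had the highest narrow share, 29.5%, against 25.9% in the short arm of chromosome 4. The short arm of chromosome 10, also sparse, had a narrow share of 22.5%.

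**Figure D4:**
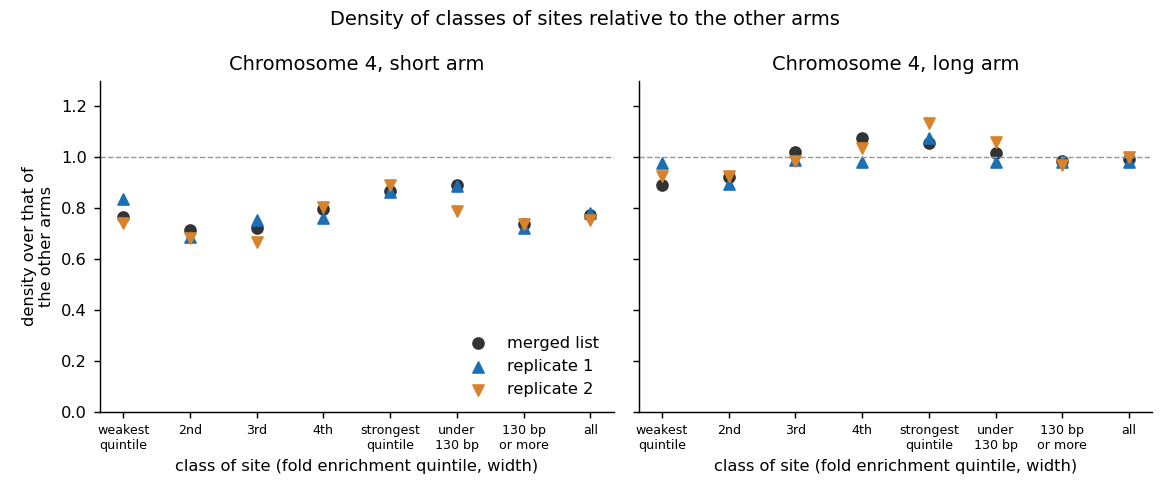
Density of classes of sites in the short and long arms of chromosome 4 over that in the 18 other arms together (y axis, 1 where equal), by quintile of fold enrichment and by width (x axis), in the merged list and each replicate. In the short arm every class lies below 1, with the strongest quintile between 0.863 and 0.889.

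The median fold enrichment was near the top of the 20 arms in both. It was 7.63 in the short arm and 7.66 in the long arm, ranks 3 and 2 of 20 from the highest, with 7.28 to 7.93 in the others. In the replicate lists it was 7.66 and 7.52 in the short arm and 7.69 and 7.50 in the long arm. The highest fold enrichment was 26.5 in the short arm, lower than in all but 1 of the other arms. It was 31.4 in the long arm, against a median of 32.8 for the maxima of the others. These maxima are single sites and do not show how common very strong sites were.

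The strongest site of the short arm was compact and stood out in both libraries. It lay at chr4:23028989-23029137 (149 bp) and was enriched 26.5-fold among merged sites (rank 77 of all), 29.1-fold in replicate 1 and 23.1-fold in replicate 2. The second, at chr4:42909221-42909436 (216 bp), was enriched 25.9-fold, with 26.3 and 21.1 in the replicates. The third, at chr4:83020757-83021261, was 505 bp wide, with 22.9, 23.1 and 21.1. The sites at chr4:54607118-54607409 (292 bp) and chr4:68364091-68364345 (255 bp) followed with 22.3 and 21.7 in the merged list. Of these 5, 3 lie in the inner, sparser part of the arm. All but the first were 25.0 kb or more from the nearest summit, whereas the first had another 0.782 kb away.

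The strongest site of the long arm was found in replicate 1 alone. It lay at chr4:191754811-191755083 (273 bp), and was enriched 31.4-fold among merged sites (rank 29) and 31.0-fold in replicate 1 (rank 51), and no replicate 2 peak overlapped it. The nearest replicate 2 summit was 59.0 kb away. The next strongest were in both libraries. The site at chr4:164217684-164217977 (294 bp) had 28.0, with 28.7 and 22.7 in the replicates. The site at chr4:188517966-188518538 (573 bp) had 27.9, with 22.2 and 30.7 in the replicates, and so was higher in replicate 2. Those at chr4:181529336-181529650 (315 bp) and chr4:211559608-211560095 (488 bp) had 26.8 and 26.3 in the merged list.

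Widths differed little between the arms. The median was 217 bp in the short arm (interquartile range 125 to 312 bp) and 216 bp in the long arm (138 to 309 bp), with medians of 202 to 229 bp in the other 18. In the replicate lists it was 175 and 183 bp in the short arm (mean 179 ± 5.66, SD, n = 2) and 187 and 179 bp in the long arm (mean 183 ± 5.66), so the order of the arms was opposite in the replicates. Narrow sites made up 612 of 2363 in the short arm (25.9%, Wilson 95% interval 24.2 to 27.7%) and 907 of 3947 in the long arm (23.0%, 21.7 to 24.3%), against 22.4% (22.1 to 22.8%) in the other arms. The intervals cover counting error only. The short arm ranked 3 of 20 from the highest in narrow share by merged sites, and 4 (38.5%) and 7 (33.0%) by the replicate lists. Across 5 Mb bins the narrow share of the short arm ran from 13.7% at 90 to 95 Mb to 35.8% in the bin beside it, at 85 to 90 Mb. Width and fold enrichment rose together, with a Spearman correlation across peaks of 0.53 in the short arm, 0.48 in the long arm and 0.45 in the others.

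The widest sites were found in both replicates. In the short arm the widest lay at chr4:49051520-49052540 (1021 bp, fold enrichment 18.2), 893 bp wide in replicate 1 and 877 bp in replicate 2. Another, at chr4:48898005-48898986 (982 bp, 9.82), lay in the same 5 Mb bin, and the third was at chr4:22163703-22164601 (899 bp, 7.29). In the long arm they were at chr4:167165177-167166282 (1106 bp, 9.66), chr4:238722593-238723583 (991 bp, 7.56) and chr4:162745772-162746753 (982 bp, 7.16). By merged fold enrichment 1 of these, the first of the short arm, was in the strongest quintile. The second of the short arm, with 10.8 in replicate 2, was in the strongest quintile of that list.

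Spacing was wide in the short arm, yet the share of sites with a close neighbour was similar to that elsewhere. The median distance to the next merged summit was 15.3 kb in the short arm, rank 2 of 20 from the highest, and 11.4 kb in the long arm, with 9.58 to 16.2 kb in the others. It was 14.8 and 17.5 kb in the replicate lists of the short arm, and 10.8 and 11.7 kb in the long arm. A following summit no more than 1 kb away was found for 18.6% of short arm sites (Wilson 95% interval 17.1 to 20.2%) and 17.6% of long arm sites (16.5 to 18.8%), against 17.8% (17.5 to 18.1%) in the other arms. Per Mb such pairs were fewer in the short arm. Distances of 200 to 500 bp numbered 1.74 per Mb there and 2.27 in the other arms, and those of 500 to 1000 bp 2.60 and 3.10. Distances of 1 to 20 kb were less frequent in the short arm: 1 to 5 kb made up 13.3% and 5 to 20 kb 22.4%, compared with 17.1% and 26.4% in the others. Distances over 100 kb made up 11.2%, compared with 6.88%, and the 265 such stretches added up to 47.3% of the short arm. On the long arm, 273 stretches over 100 kb (6.92% of distances) added up to 34.2% of its length, against 29.9 to 53.4% across the other arms. Spacing follows from density, which chose the chromosome.

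Dense groups of sites were few in the short arm. Groups were counted as 3 or more summits, each within 5 kb of the next. The short arm held 111 groups of 3, 24 of 4 and 2 of 5, with 18.6% of its sites, the lowest share of the 20 arms. Replicate 2 also had it lowest (16.2%) and replicate 1 second lowest (19.9%). The long arm held 292 groups with 24.5% of its sites, and the others 19.0 to 29.2%. Of the groups of 5 in the short arm, the one at chr4:44220269-44229627 had all 5 in both replicates, and that at chr4:47818685-47824716 had 1 of 5. The largest groups of the long arm had 6 summits, and there were 4 of them. The one at chr4:190885925-190896453 had all 6 in both replicates and the other 3 groups had 3 of 6.

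Long stretches without a merged summit were not limited to the inner parts of the arms. That of the short arm ran for 628 kb from 8757447 to 9385879, through its outer part, and held 2 peaks of replicate 1 with fold enrichment up to 5.74 and none of replicate 2. The next were 448 kb (94356806 to 94804415), with 4 peaks of replicate 1 and 1 of replicate 2, and 409 kb (88623198 to 89032601), with none of either. In the long arm the longest was 531 kb, from 229303515 to 229834302, without a peak in either replicate. It was followed by neighbouring stretches of 395 kb (167596877 to 167992096), with none, and 373 kb (167223763 to 167596465), with 1 peak of replicate 1. The longest stretch depended on the list: in the short arm it was 409 kb in replicate 1 and 1148 kb in replicate 2 (rank 2 of 20 from the highest), and in the long arm 598 and 550 kb. Near the caller's lowest fold enrichment of 5, the lack of a peak does not show that hypersensitivity is absent.

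None of the most isolated sites reached the strongest quintile of the merged list, but 3 of them did so in replicate 1. The short arm site at chr4:92018602-92018975 (374 bp, fold enrichment 10.1) lay 185 kb from its nearest neighbour and that at chr4:80005313-80005975 (663 bp, 10.7) lay 181 kb away. Both were in both replicates, with 11.5 and 7.69 for the first and 11.4 and 9.55 for the second. The third, at chr4:72351086-72351167 (82 bp, 6.47), lay 176 kb away and was in replicate 1 alone. In the long arm the most isolated were at chr4:129650756-129651041 (286 bp, 10.4, 172 kb away), chr4:136767763-136767929 (167 bp, 8.83, 165 kb) and chr4:239406252-239406704 (453 bp, 10.6, 143 kb), all in both replicates. In replicates 1 and 2 the first of these had 13.0 and 9.24 and the last 14.2 and 8.91.

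Recurrence between the replicates was a little lower in both arms than in most others. A merged site was taken as recurrent when a peak of each replicate overlapped it by at least 1 bp, which held for 76.5% of all merged sites on the 10 chromosomes. It held for 1781 sites of the short arm (75.4%, Wilson 95% interval 73.6 to 77.1%) and 2960 of the long arm (75.0%, 73.6 to 76.3%). In the other 18 arms together the share was 76.6% (76.3 to 77.0%), with 63.0% in the short arm of chromosome 6, 74.3% in the next lowest and up to 78.4%. The short arm ranked 4 and the long arm 3 of 20 from the lowest. The interval of the short arm spans the share of the other arms, and that of the long arm lies below it. Among peaks with −log10 q of at least 20 in every list, the share was 56.9% (55.5 to 58.2%) in the chromosome 4 arms and 56.3% in the others. The order turned, but that interval spans the share of the others. Of the short arm sites 404 (17.1%) had a counterpart in replicate 1 alone, 139 (5.88%) in replicate 2 alone and 39 (1.65%) in neither. Of the long arm sites these were 668 (16.9%), 252 (6.38%) and 67 (1.70%). The merged list was made from the same libraries, so these shares are not independent of them.

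The replicate lists were also compared with each other. On the short arm 67.8% (Wilson 95% interval 66.0 to 69.6%) of replicate 1 peaks overlapped a replicate 2 peak, and in the long arm 68.7% (67.3 to 70.1%), where 69.5% did over all chromosomes. The arms ranked 2 and 6 of 20 from the lowest. Of replicate 2 peaks, 86.4% (84.9 to 87.8%) in the short arm and 84.1% (82.8 to 85.2%) in the long arm overlapped a replicate 1 peak, where 86.5% did over all chromosomes. Here they ranked 8 and 2. Where a site was in both, the summits lay a median of 14 bp apart in each arm and 13 bp in the other arms.

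Weak sites recurred less in both arms than in the others, and strong sites less in the long arm. On the short arm recurrence followed strength: it was 19.2% in the weakest quintile of merged sites, 63.2%, 92.7% and 99.4% in the next, and 99.8% (521 of 522) in the strongest. In the long arm it was 20.5% in the weakest quintile but reached only 95.9% in the fourth and 96.1% (794 of 826) in the strongest, with intervals of 94.3 to 97.0% and 94.6 to 97.2%. Between these it had 64.2% and 89.8%. The other arms had 24.9% (24.1 to 25.8%) in the weakest quintile, 69.0% (68.1 to 69.9%) in the next, then 93.1%, 98.4% (98.1 to 98.6%) in the fourth and 99.1% (98.9 to 99.3%) in the strongest. The long arm thus held strong sites that 1 replicate lacked.

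Strong sites of 1 replicate alone were concentrated in 20 Mb of the long arm, from 175 to 195 Mb. The stretch is the run of adjacent 5 Mb bins with 5 or more strong peaks of 1 replicate alone, a limit set after the values were seen, so its counts are a description without a test. Strong peaks here are the top 20% of each replicate list, with fold enrichment of at least 11.5 in replicate 1 and 10.2 in replicate 2. In the stretch 31 of 180 strong replicate 1 peaks (17.2%, Wilson 95% interval 12.4 to 23.4%) had no replicate 2 peak, and 10 of 206 strong replicate 2 peaks (4.85%, 2.66 to 8.70%) had no replicate 1 peak. In the rest of the long arm these were 7 of 757 (0.925%) and 10 of 589 (1.70%), and in the short arm 2 of 578 (0.346%) and 4 of 479 (0.835%). Over all chromosomes they were 1.75% and 0.735%. The stretch is not alone in this: the short arm of chromosome 6 as a whole had 32 of 173 (18.5%) and 11 of 152 (7.24%). The stretch, 20 of the 2106 Mb covered by the lists, held 11.9% of all strong peaks found in replicate 1 alone and 11.2% of those found in replicate 2 alone. Its 4 bins of 5 Mb held 8, 10, 6 and 17 such peaks, while the other whole bins of the arm held 0 to 4, and 17 was the highest count among all 426 bins of the genome.

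Recurrence of all merged sites was low in the same 20 Mb. It was 64.6% (61.3 to 67.8%) within the stretch and 77.8% (76.3 to 79.3%) in the rest of the long arm, with bin values of 66.1%, 66.7%, 68.6% and 58.5%. The stretch also held 42.4 merged sites per Mb, against 31.9 in the rest of the arm, while recurrent sites alone were at 27.4 and 24.9 per Mb. The high counts in the middle of the long arm, the densest 5 Mb bin included, are therefore in part sites of 1 replicate. Without the stretch, 76.8% of sites on the chromosome 4 arms recurred, in place of 75.1%. Since the stretch was chosen by sites that lacked a counterpart, leaving it out had to raise the share.

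Single sites of the stretch were clear in 1 library. In replicate 1 alone, the strongest after the site at chr4:191754811-191755083 were at chr4:191487892-191488102 (211 bp, fold enrichment 21.9), chr4:175617589-175617743 (155 bp, 21.2) and chr4:176459672-176460123 (452 bp, 20.3). In replicate 2 alone they were at chr4:181602018-181602509 (492 bp, 16.9) and chr4:183190469-183190813 (345 bp, 16.6). These sites were chosen after their values were seen. All 31 and all 10 overlapped a peak of the merged list. A peak of the other replicate had its summit within 1 kb of 6 of the 31 and of 1 of the 10. Why 1 replicate lacked them was not tested.

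**Figure D5:**
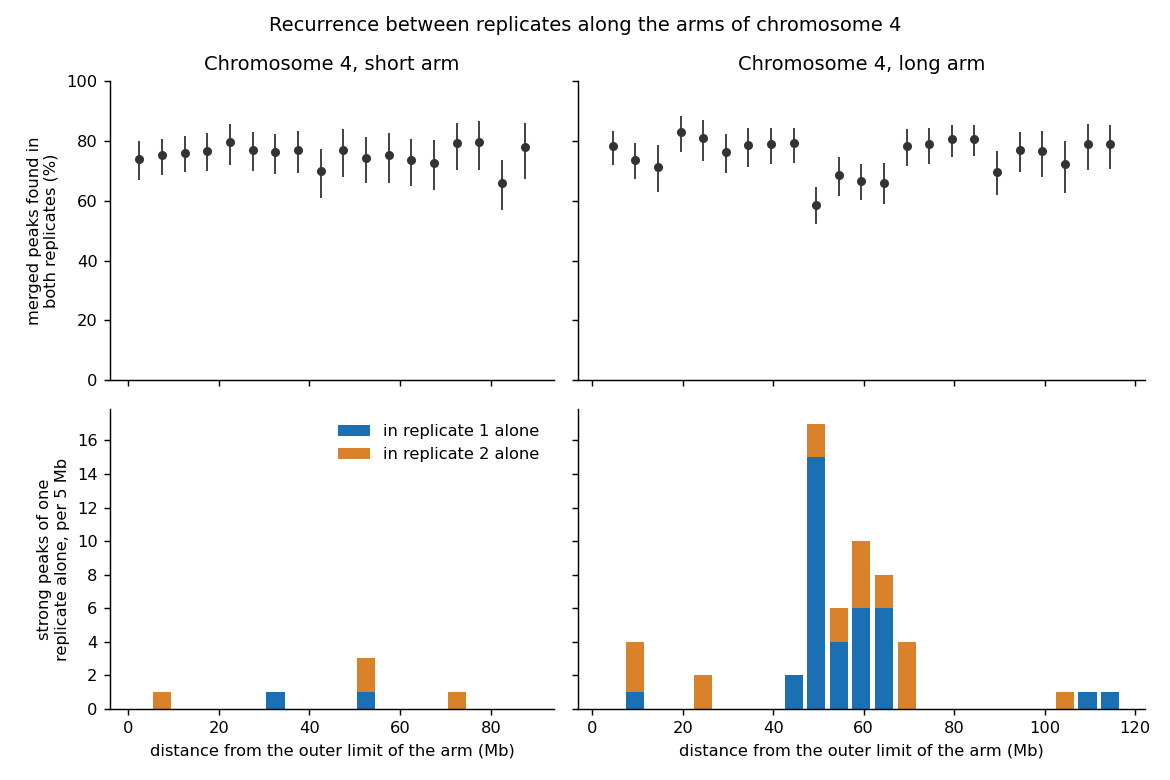
Top, percentage of merged sites recurring in both libraries, per 5 Mb bin (y axis, points with Wilson 95% intervals) along the chromosome 4 arms by distance from the outer limit (x axis); bottom, number of strong peaks (top 20% of a replicate list) found in 1 replicate alone. The 4 bins of the long arm with 58.5 to 68.6% recurrence hold 6 to 17 strong peaks of 1 replicate.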

How the data were processed

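The build is B73 RefGen_v4, and MACS2, Bowtie2, fastp 0.20.0, SAMtools 1.5, deepTools and ChIPseeker are named, per the submitters' processing notes. No source used here gives settings, thresholds or how the replicates were merged. The authors deposited 3 peak lists, with a fold enrichment ratio per peak, −log10 p-value and −log10 q-value, a score (not used) and the summit position. No read totals are given, so depth is unknown. Only positions, fold enrichment and −log10 q were used. Summits, widths, spacings inside an arm and overlaps (1 bp) were computed with Python 3.11.15, pandas 2.3.3 and statsmodels 0.14.6. Density, median width, narrow share and the overlap shares were tested on simulated peaks, and spacings were not. Centromere midpoints are approximate, rounded to whole Mb and taken from general knowledge of the build; on 9 of 10 chromosomes the least dense 5 Mb lies within 15 Mb of them. Sites were named by rule: in each arm the 5 strongest, 3 widest, 3 most isolated, the 3 longest stretches, the densest and least dense bins and those at the limits. The members, classes and limits were chosen with earlier results of these data known. Both libraries form 1 group, so no test between groups was made. Alternatives covered the list, the q threshold, the overlap rule, the arm limits and the bins.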

Additional observations from a re-analysis of the deposited data

How the results depend on the processing

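Chromosome 4 had the fewest sites per Mb in its arms among the 10 chromosomes as reported and in all 9 alternatives, with the short arm at rank 2 to 4 of 20 from the lowest and the long arm at rank 6 to 10. The density of its arms, 30.5 per Mb, moved to 24.2 at −log10 q ≥ 20 and to 22.9 among peaks found in both replicates. Its ratio to the other arms, 0.898, was 0.894 at −log10 q ≥ 10, 0.881 at ≥ 20, 0.883 with 25 Mb left out on each side of the centromere, 0.909 with 10 Mb left out at each end, 0.892 with arms set by the 30 Mb with the fewest summits, 0.880 among peaks found in both replicates and 0.860 without 175 to 195 Mb. The last alternative was added after seeing the data. It had to lower the ratio, since that stretch was denser than the arms as a whole and was cut from chromosome 4 alone. The median width, 216 bp, was 219 bp at −log10 q ≥ 10 and without 175 to 195 Mb, 247 bp at ≥ 20 and 249 bp among peaks found in both replicates. The share with the next summit within 1 kb, 18.0%, was 14.8% at −log10 q ≥ 20 and 13.6% among peaks found in both replicates; within 500 bp it was 8.64% and within 5 kb 33.5%, by construction. Median fold enrichment, 7.65, was 8.62 at −log10 q ≥ 20 and 8.73 among peaks found in both replicates. Recurrence, 75.1%, was 70.0% at −log10 q ≥ 10 in all lists, 67.0% when each peak had to be covered by 50% or more, 62.6% when summits had to lie within 50 bp of each other and 76.8% without 175 to 195 Mb. Leaving out either replicate gave 27.6 to 33.8 sites per Mb, a ratio of 0.894 to 0.895, widths of 180 to 183 bp, shares of 18.0 to 18.4% and fold enrichments of 7.50 to 7.68. Keeping only part of the peaks in the same arms could only lower the density, and the 50% overlap rule could only lower recurrence. Where other values moved, the cause was not tested. No paired analysis was possible because there is 1 group of 2 libraries. Recurrence cannot be computed from 1 library. At −log10 q ≥ 20 in all lists, added after seeing the data, it was 56.9%, above the 56.3% of the other arms, whereas as reported it was below them. Depth is unknown, so counts near the lowest called fold enrichment are the least certain.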

Other observations

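Strong peaks of 1 replicate alone were also concentrated in a few other places. Of 426 bins of 5 Mb over the genome, the median held 0 of them. After the bin at 190 to 195 Mb of chromosome 4 with 17, the highest counts were 16 at 20 to 25 Mb and 14 in the first 5 Mb of chromosome 6, and 13 in each of 2 neighbouring bins of chromosome 2 at 220 to 230 Mb. Next to the stretch on chromosome 4, the bin at 170 to 175 Mb held 4, all in replicate 2. The bin at 230 to 235 Mb also held 4, with 1 in replicate 1 and 3 in replicate 2. On the short arm the highest count was 3, at 55 to 60 Mb.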
